A study of Mus musculus with 28 samples.

Results

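The genes described here make, cut and degrade the amyloid precursor protein, and were followed in microglia and in astrocytes taken from the same mice by cell sorting. They are 9 of the 40481 mouse genes in the count table, chosen by name: App and its relatives Aplp1 and Aplp2, the secretase genes Adam10, Bace1, Psen2 and Ncstn, and the genes of the degrading enzymes, Ide and Mme. The amyloid precursor is a membrane protein that is first cut outside the cell surface by either of a pair of enzymes. ADAM10, the main alpha-secretase, cuts within the amyloid-beta stretch and prevents the peptide from forming. BACE1, the beta-secretase, makes the first cut that leads to amyloid-beta. The stub that remains in the membrane is then cut by gamma-secretase, a complex in which presenilin 2 is one of the alternative catalytic subunits and nicastrin, the product of Ncstn, is the large glycosylated subunit. APLP1 and APLP2 are cut by the same enzymes but do not contain the amyloid-beta sequence. Insulin-degrading enzyme (IDE) and neprilysin, the product of Mme, break down the released peptide. Neurons are the main source of amyloid-beta in the brain, and glia are studied mostly for its uptake and breakdown.

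All mice were APOE4fl/fl, with a floxed human APOE4 gene on both alleles, and all received tamoxifen at 3.8 months of age as 2 intraperitoneal doses of 100 mg per kg, with cells sorted 10 days later from cortex, hippocampus and thalamus. Microglia were sorted with an antibody to Cd11b and astrocytes with one to ACSA-2. APPPS1 mice also carry human APP and presenilin transgenes, which are expressed from a neuronal promoter and cause early plaques. Cre-positive mice carry ALDH1L1-CreERT, a tamoxifen-dependent recombinase under an astrocyte promoter, which is meant to delete APOE4 in astrocytes. The labels give, for each sort, 5 mice of genotype APPPS1::APOE4fl/fl (APPPS1 Cre-negative), 5 of APPPS1::APOE4fl/fl::ALDH1L1-CreERT (APPPS1 Cre-positive), 2 of APOE4fl/fl (amyloid-free Cre-negative) and 2 of APOE4fl/fl::ALDH1L1-CreERT (amyloid-free Cre-positive). The description of the series states 4 for either APPPS1 group. Because every mouse is APOE4fl/fl and tamoxifen-treated, the effect of neither can be read from these groups.

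Mouse 459, an APPPS1 Cre-positive animal, was left out by the rule for these genes. Its library labelled microglia had 13.4 CPM (counts scaled to a common library total) of P2ry12, a microglial receptor gene, and its library labelled astrocyte had 8756 CPM. For the genes described here the library labelled microglia had 459.6 CPM of Aplp1 and 110.2 CPM of Ncstn, and the library labelled astrocyte had 1.55 and 383 CPM. That left 13 libraries per sort, with 4 APPPS1 Cre-positive mice. Total counts in these 26 libraries ran from 26162612 to 59238523. CPM values of mouse genes are relative to the library's summed mouse gene counts, with totals scaled by TMM, which corrects for differences in library makeup. Those of human genes use the summed mouse gene counts without TMM scaling. Summed over 10 microglia markers, the microglia libraries held 15740 to 45117 CPM and the astrocyte libraries 80.3 to 122.7 CPM. Summed over 10 astrocyte markers, the astrocyte libraries held 22573 to 36070 CPM and the microglia libraries 181.1 to 454.8 CPM. The lowest microglia marker sum belonged to amyloid-free Cre-positive mouse 26, and the other 12 microglia libraries began at 32406 CPM. Summed over 7 oligodendrocyte markers, levels came to 861 to 5581 CPM in astrocyte libraries and 72.0 to 188.2 CPM in microglia libraries. Human APOE counts, the target of Cre, ran from 1052 to 1864 CPM in the 7 Cre-negative astrocyte libraries and from 507 to 926 CPM in the 6 Cre-positive ones, without overlap.

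**Figure D1:**
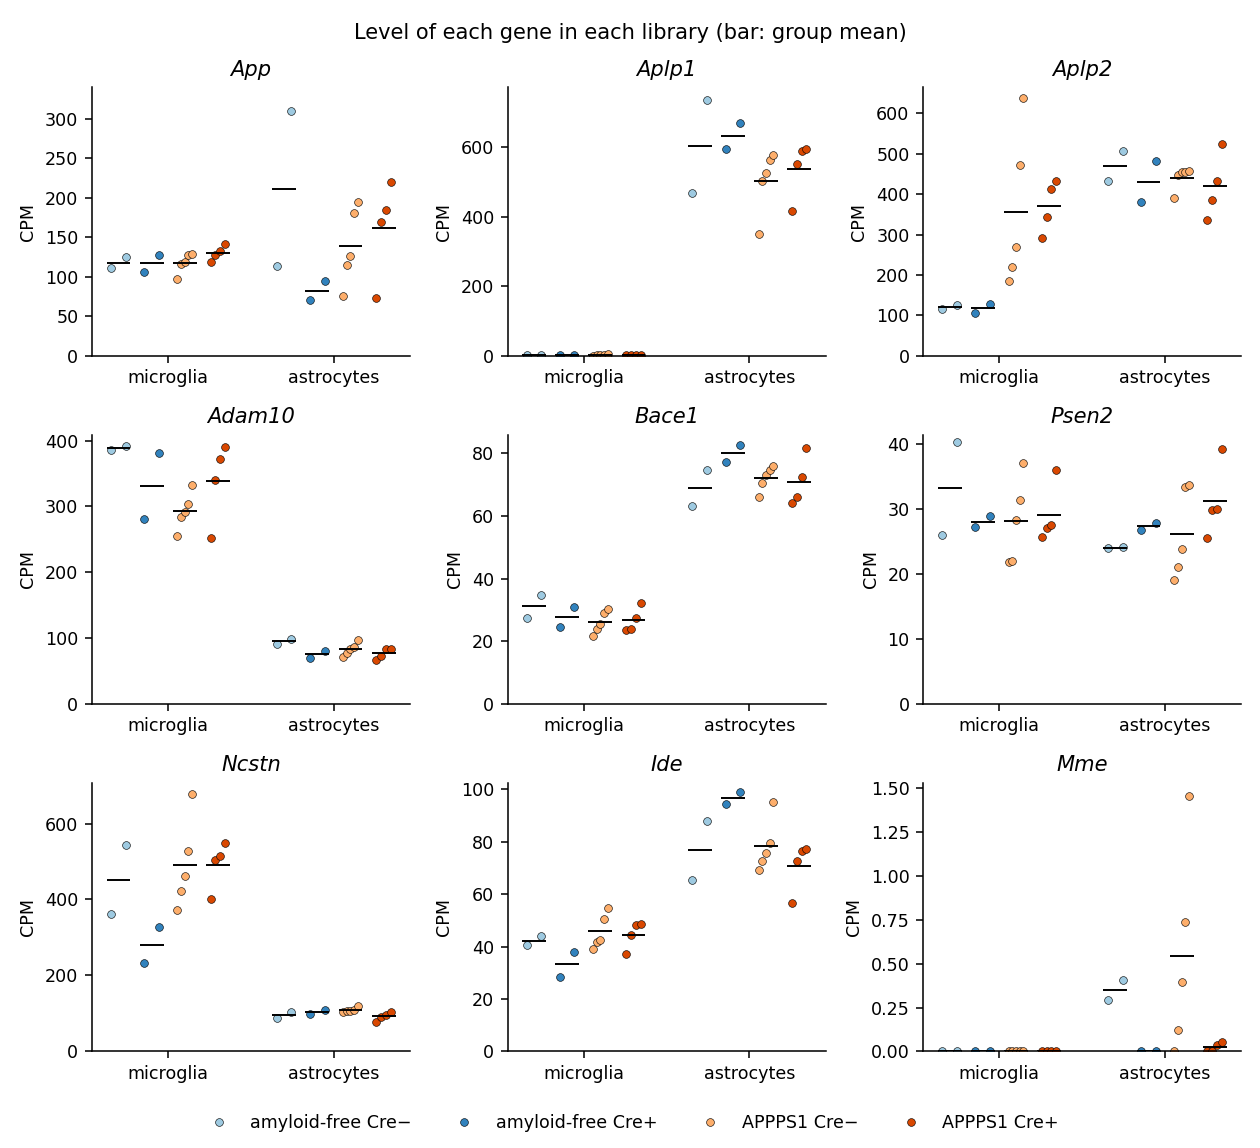
Level of each of the 9 genes in each of the 26 libraries, in CPM on linear axes that start at 0 and differ between panels. Points are mice, colours are the 4 genotype groups and bars are group means. Ncstn and Adam10 are high in microglia, Aplp1, Bace1 and Ide are high in astrocytes, and Aplp2 in microglia lies at 106.7 to 128.1 CPM in amyloid-free mice and at 184 to 638 CPM in APPPS1 mice.

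The first question was which sort holds more of each transcript. Microglia held more Ncstn and Adam10, astrocytes held more Aplp1, Aplp2, Bace1 and Ide, and App and Psen2 did not pass the test. Mme did not pass either, but it had 0 counts in every microglia library, and the test cannot decide it, as given below. Of the 9 genes, 2 were higher and 4 lower in microglia at an adjusted p under 0.05 (edgeR quasi-likelihood test averaged over the 4 genotype groups, Benjamini-Hochberg over 21612 genes). In the same test 76.5% of all genes were called, 35.4% of them higher in microglia and 41.1% lower as shares of all genes tested, so a count of 6 of 9 is near the background. In bulk libraries fewer cells of a type and less RNA per cell cannot be told apart.

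Among the precursor family, Aplp1 separated the sorts most widely. Its level was 2.25 ± 1.01 CPM in microglia (SD, n = 13), with a lowest of 0.515, a median of 2.01 and a highest of 4.41 CPM. In astrocytes it was 550 ± 101 CPM (SD, n = 13), with a lowest of 349, a median of 564 and a highest of 737 CPM. No microglia library came near any astrocyte library, and the log2 difference of microglia over astrocytes was -8.11 ± 0.30 (SE, adjusted p = 1.8e-16). Aplp2 was lower in microglia by -1.08 ± 0.17 on the log2 scale (adjusted p = 3.6e-06), but its groups overlapped. Its microglial level exceeded the astrocyte level of the same mouse in 4 of 13 mice, all of them APPPS1 mice. The ratio of microglia to astrocytes within a mouse was 0.23 to 0.29 in amyloid-free mice and 0.41 to 1.64 in APPPS1 mice. The averaged difference thus joins unlike conditions. App averaged 121.6 ± 12.01 CPM in microglia and 148.3 ± 69.8 CPM in astrocytes (SD, n = 13 each). The difference of -0.22 ± 0.18 did not pass (adjusted p = 0.27), and App was higher in the microglia of 6 of 13 mice. The spread of App was far wider in astrocytes, with a coefficient of variation of 47.1% against 9.88% in microglia.

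The secretase genes divided. Adam10, the alpha-secretase gene, had 253 to 392 CPM in microglia (median 332) and 66.4 to 98.7 CPM in astrocytes (median 82.5). All 13 microglia libraries lay above all 13 astrocyte libraries, the ratio of means was 4.02 and the log2 difference 2.04 ± 0.09 (SE, adjusted p = 3.3e-15). Ncstn, the nicastrin gene, had 234 to 677 CPM in microglia (median 463) and 78.3 to 119.7 CPM in astrocytes (median 104.3). Its libraries did not overlap either, with a ratio of means of 4.48 and a log2 difference of 2.06 ± 0.11 (adjusted p = 8.2e-14). Bace1, the beta-secretase gene, went the other way. It had 21.7 to 34.8 CPM in microglia (median 27.3) and 63.2 to 82.8 CPM in astrocytes (median 73.2), again without overlap, for a log2 difference of -1.39 ± 0.08 (adjusted p = 6.8e-13). Psen2 had 21.8 to 40.3 CPM in microglia and 19.0 to 39.2 CPM in astrocytes, and its difference of 0.13 ± 0.12 did not pass (adjusted p = 0.37).

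Of the degrading enzymes, Ide had 28.5 to 54.7 CPM in microglia (median 42.6) and 56.8 to 99.0 CPM in astrocytes (median 76.4). The groups did not overlap, and the log2 difference was -0.96 ± 0.09 (SE, adjusted p = 1.6e-09). Genes whose 13 microglia libraries all lay above or below all 13 astrocyte libraries were common, at 35.4% of the 21612 genes tested, so 5 such genes of 9 (Adam10, Ncstn, Aplp1, Bace1 and Ide) is no result about this set. Mme, the neprilysin gene, had 0 counts in all 13 microglia libraries, where a count of 0 allows up to 3 counts, or 0.0660 to 0.116 CPM by library. It had 0 counts in 5 astrocyte libraries and at most 68 counts, 1.46 CPM, in the others, so no fold is given. Mme did not pass between the sorts in the fit without pairing (edgeR adjusted p = 0.9999). That fit averages over the 4 genotype groups, of which the amyloid-free Cre-positive mice had 0 counts in both sorts. No fold is defined there, so this p-value cannot decide the question. Mme was called with the mouse as a block (edgeR adjusted p = 0.0087) and by DESeq2 (adjusted p = 0.029). Intervals and limits of this kind cover counting error only.

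Leaving out mouse 26 or mouse 759 left 6 of the 9 genes called between the sorts, with 15628 and 15758 called over all genes. Over all genes the median log2 difference was -0.18, and -0.30 when scaled by DESeq2-type size factors, and relative to that shift none of these 6 directions turned.

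To compare genes with each other, levels were divided by the length of the principal transcript of each gene in GENCODE M21. In microglia Ncstn came first at 156 ± 40 CPM per kb (SD, n = 13), followed by Aplp2 at 79.1 ± 45.4, Adam10 at 71.4 ± 11.5 and App at 38.3 ± 3.8 CPM per kb. Psen2, Ide, Bace1 and Aplp1 followed at 14.4, 8.65, 4.50 and 0.961 CPM per kb, and Mme was at 0. Aplp2 was higher than Adam10 in 6 of 13 libraries, but these means pool genotypes, and Aplp2 was higher with amyloid. In amyloid-free microglia Aplp2 was below both Adam10 and App per length. It had 106.7 to 128.1 CPM over 3634 bases there, against 281 to 392 CPM over 4593 bases for Adam10. The family share of Aplp2 per length was 44.4% to 49.3%, and that of App 49.98% to 54.7%. Apart from Aplp2 and Adam10, every neighbouring pair of the pooled order kept its order in 13 of 13 microglia libraries. In astrocytes Aplp1 led at 234.7 ± 43.2 CPM per kb, followed by Aplp2 at 120.3 ± 14.5, App at 46.7 ± 22.0 and Ncstn at 34.9 ± 3.7 CPM per kb. App exceeded Ncstn in 8 of 13 astrocyte libraries, so their order is not settled. Adam10, Ide, Psen2 and Bace1 lay close together at 17.7, 15.8, 13.6 and 11.97 CPM per kb, with each neighbouring pair in that order in 9 or 10 of 13 libraries. Per length, the beta-secretase gene was thus below the alpha-secretase gene in both sorts, by mean levels of 4.50 against 71.4 CPM per kb in microglia and of 11.97 against 17.7 CPM per kb in astrocytes. With the length of all annotated exons instead, Aplp2 fell behind Adam10 in microglia and App fell to rank 6 in astrocytes. Bace1 rose to rank 5 in astrocytes, ahead of App, Ide and Psen2 but still behind Adam10.

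**Figure D2:**
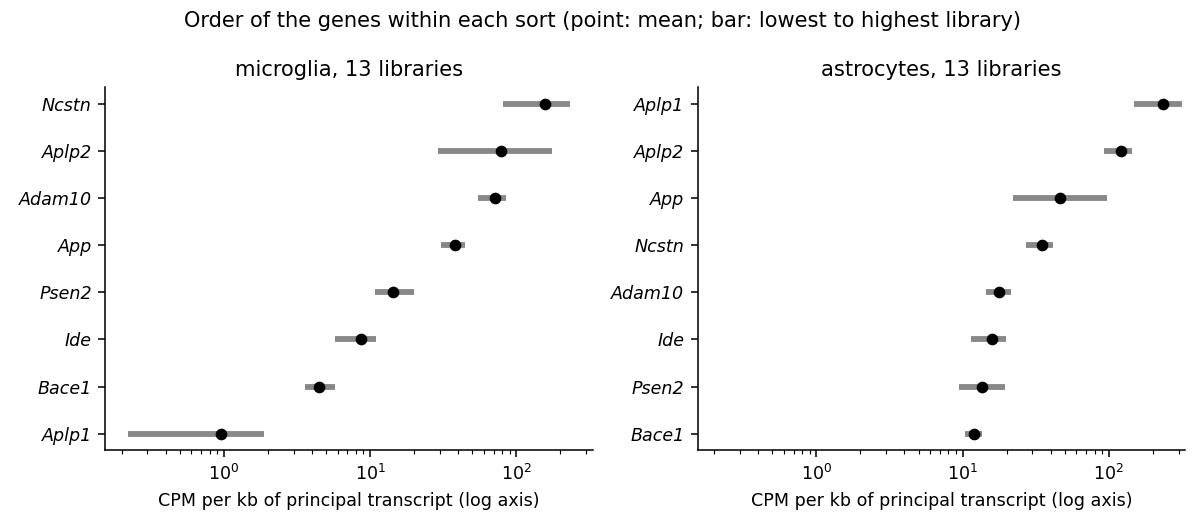
Mean level per kb of principal transcript of 8 genes in each sort, on a log axis, with a bar from the lowest to the highest of 13 libraries. Mme is not drawn because it was at 0 in microglia. Ncstn leads in microglia at 156 CPM per kb and Aplp1 in astrocytes at 234.7 CPM per kb, where it is last of the 8 in microglia at 0.961.

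The promoters of the 3 precursor family genes and of the secretase genes that were high in microglia are shown because these genes set the sorts apart or stand for the family. Each is the 190 bases from 250 to 61 bases before the RefSeq start of the gene on build GRCm38.p6, printed on the gene's own strand, and 8 of the 9 genes had an entry. They lie at chr16:85173768-85173957 for App, chr7:30445643-30445832 for Aplp1, chr9:31211909-31212098 for Aplp2 and chr1:172082810-172082999 for Ncstn, all on the minus strand, and at chr9:70678732-70678921 on the plus strand for Adam10. Capitals mark the GC box GGGCGG or its reverse complement CCGCCC, the only one of the searched motifs with a match.
App: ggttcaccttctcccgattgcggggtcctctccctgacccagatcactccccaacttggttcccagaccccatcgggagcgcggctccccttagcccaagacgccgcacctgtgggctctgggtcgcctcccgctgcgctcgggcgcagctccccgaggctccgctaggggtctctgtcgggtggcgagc
Aplp1: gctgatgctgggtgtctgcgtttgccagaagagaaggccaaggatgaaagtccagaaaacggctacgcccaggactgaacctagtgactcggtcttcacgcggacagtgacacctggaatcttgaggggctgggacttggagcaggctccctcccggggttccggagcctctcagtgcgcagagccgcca
Aplp2: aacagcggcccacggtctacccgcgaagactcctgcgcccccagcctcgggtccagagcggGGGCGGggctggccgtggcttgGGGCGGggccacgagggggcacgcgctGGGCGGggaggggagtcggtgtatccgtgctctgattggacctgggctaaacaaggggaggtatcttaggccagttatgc
Ncstn: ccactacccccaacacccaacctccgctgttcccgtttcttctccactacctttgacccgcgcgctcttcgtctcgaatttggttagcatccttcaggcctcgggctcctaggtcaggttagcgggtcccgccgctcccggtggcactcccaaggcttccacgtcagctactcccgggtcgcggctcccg
Adam10: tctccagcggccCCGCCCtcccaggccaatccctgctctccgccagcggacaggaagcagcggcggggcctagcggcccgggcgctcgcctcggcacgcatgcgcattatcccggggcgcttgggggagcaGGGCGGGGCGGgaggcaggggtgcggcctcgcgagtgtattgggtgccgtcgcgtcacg
The window of Aplp2 held 3 GC boxes and that of Adam10 also held 3, of which a pair overlap. The windows of App, Aplp1 and Ncstn held none of these letters. Of 32851 promoter windows of this length, 22.8% held a GC box. The E-box CACGTG, present in 4.03% of windows, and the letters GGAAGT or ACTTCC of the ETS core, in 13.7%, were in none of the 5. The windows were 60.5% to 75.3% G and C, against a median of 51.6% over all windows. Levels of Ncstn and Adam10 differed between the sorts by nearly the same amount. Because the Ncstn window held no match, the searched motifs cannot tell whether their promoters are alike.

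The genes themselves lie on 6 chromosomes of GRCm38 in GENCODE M21. App spans chr16:84949685-85173766 on the minus strand, Aplp1 spans chr7:30434982-30445535 (minus) and Aplp2 spans chr9:31149557-31211815 (minus). Adam10 and Bace1 are also on chromosome 9, at 70678997-70780229 and 45838580-45864399 on the plus strand. Ncstn at 172066013-172082795 and Psen2 at 180227004-180263438 are on the minus strand of chromosome 1. Ide spans chr19:37268743-37337852 (minus) and Mme chr3:63241537-63386030 (plus).

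The second question was what changed in mice with amyloid. In microglia, Aplp2 rose and no other of these genes passed. Aplp2 encodes the amyloid precursor-like protein that is widely expressed outside neurons. In amyloid-free microglia its level was 124.9 and 115.8 CPM in the Cre-negative mice and 106.7 and 128.1 CPM in the Cre-positive mice. In APPPS1 microglia it was 219.5, 269, 184, 472 and 638 CPM in the Cre-negative mice and 292, 412, 344 and 433 CPM in the Cre-positive mice. All 9 APPPS1 libraries lay above all 4 amyloid-free libraries, and the lowest APPPS1 library was well clear of the highest amyloid-free one. The ratio of means was 3.05, and the log2 change averaged over Cre was 1.58 ± 0.29 (SE, edgeR adjusted p = 0.0063). Of the 8 genes tested in microglia, 1 was called, against 9.58% of all 17593 genes (6.06% higher, 3.52% lower). Groups that did not overlap in the higher direction were found for 2.11% of 21612 genes. These are the genes kept in the fit of both sorts, a wider set than the 17593 tested in microglia.

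The rise of Aplp2 was of the same size with either Cre state, at 1.57 on the log2 scale in Cre-negative mice alone (adjusted p = 0.133) and 1.60 in Cre-positive mice alone (adjusted p = 0.035). The difference between these changes was 0.03 ± 0.53 (adjusted p = 0.99). It stayed called without mouse 26, whose library stood apart, at 1.69 (adjusted p = 0.032), and without any other single mouse. The microglia marker sum was 38047 to 45117 CPM in APPPS1 microglia and 15740 to 42650 CPM in amyloid-free microglia. Astrocyte markers, whose cells hold much Aplp2, summed to 181.1 to 287.7 CPM in APPPS1 microglia and to 249.3 to 454.8 CPM in amyloid-free microglia. Border macrophage markers summed to 106.1 to 216.2 CPM and to 48.8 to 306.5 CPM, respectively. Neuronal markers summed to 4.30 to 11.5 CPM in APPPS1 microglia and to 12.2 to 29.4 CPM in amyloid-free microglia, without overlap. Endothelial markers summed to 29.1 to 63.4 CPM and to 50.2 to 194.6 CPM, and pericyte and smooth muscle markers to 0.672 to 11.0 CPM and to 4.91 to 49.6 CPM. The part of these cells in the Aplp2 change was not tested. Among the 5 APPPS1 Cre-negative mice Aplp2 varied 3.47-fold from lowest to highest, against 1.48-fold among the 4 Cre-positive mice.

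The remaining genes moved little in amyloid microglia. Ncstn was 0.44 ± 0.16 higher on the log2 scale but missed the threshold (adjusted p = 0.098). Its levels were 543, 361, 327 and 233.7 CPM in amyloid-free mice and 371 to 677 CPM in APPPS1 mice, which overlap. The difference was 0.13 in Cre-negative and 0.76 in Cre-positive mice, with adjusted p of 0.896 and 0.0658. Ide differed by 0.25 ± 0.13, Adam10 by -0.21 ± 0.14 and Bace1 by -0.17 ± 0.14. Psen2 differed by -0.12 ± 0.16, App by 0.05 ± 0.12 and Aplp1 by 0.39 ± 0.40, the last at a level of 0.515 to 4.41 CPM. Mme was at 0 counts and was not tested. The adjusted p of these 6 genes ran from 0.25 to 0.805.

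In astrocytes 0 of the 9 genes passed, against 0% of all 20052 genes. edgeR gave 1409 genes an unadjusted p under 0.05, none of them one of the 9, and DESeq2 called 293 genes, of which 0 were members. Aplp2 was 433 and 505.6 CPM in amyloid-free Cre-negative and 381 and 481 CPM in amyloid-free Cre-positive astrocytes, and 337 to 524 CPM in APPPS1 astrocytes, with full overlap. Its log2 difference was -0.06 ± 0.12. The differences of the other genes with at least 19.0 CPM ran from -0.24 ± 0.16 for Aplp1 to 0.18 ± 0.32 for App. The average for App joins opposite directions, at -0.62 ± 0.43 in Cre-negative and 0.98 ± 0.48 in Cre-positive mice. These App changes differed by 1.61 ± 0.64, which did not pass (edgeR unadjusted p = 0.0248, adjusted p = 0.350). Mme lay between 0 and 1.46 CPM, with both amyloid-free Cre-positive libraries at 0, so no fold is given.

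**Figure D3:**
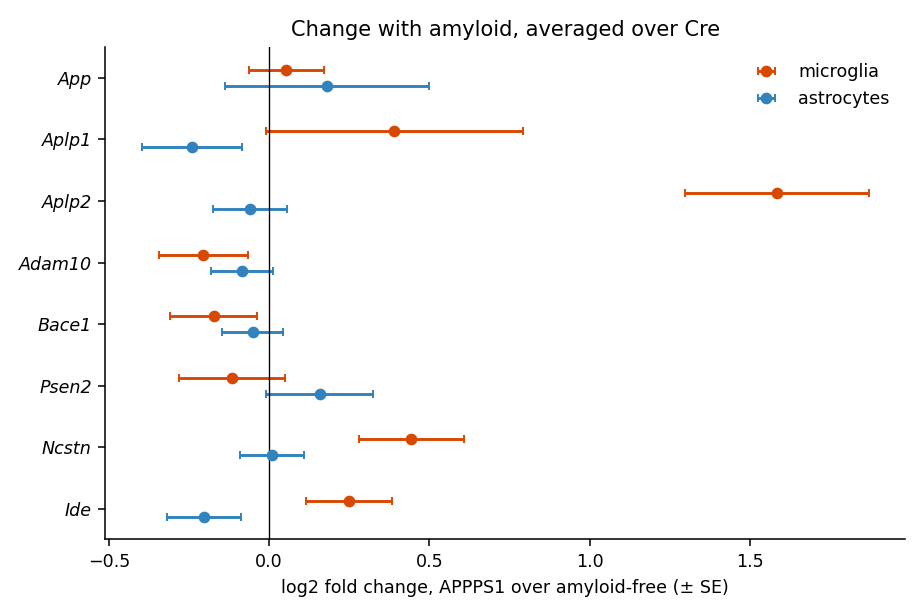
Log2 change of APPPS1 over amyloid-free mice for 8 genes in microglia and in astrocytes, averaged over Cre, with bars of 1 SE from edgeR. Aplp2 in microglia stands at 1.58, and all other points lie between -0.24 and 0.44.

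The difference between the sorts was tested directly. The log2 change of Aplp2 with amyloid was larger in microglia than in astrocytes by 1.68 ± 0.33 (SE, edgeR adjusted p = 0.0101). This call rests on the setting: with the mouse as a block, which uses the pairing of microglia and astrocytes from 1 animal, the difference was 1.59 with an adjusted p of 0.0686. Without mouse 26 it was 1.67 (adjusted p = 0.0858) and without mouse 759 it was 1.60 (adjusted p = 0.0894). In this comparison 1.5% of 21612 genes, or 325, were called, 0.773% in the higher direction, and with the block 80 genes were called. Of the other genes, Ide had 0.48 ± 0.18 (adjusted p = 0.183) and Ncstn 0.46 ± 0.21 (adjusted p = 0.281). The 5 others with reads in both sorts ran from -0.25 for Psen2 to 0.66 for Aplp1, with adjusted p of at least 0.476.

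The makeup of the precursor family differed accordingly. Per length, Aplp2 made up 46.4 ± 2.1% of the 3 family genes in amyloid-free microglia (SD, n = 4; range 44.4% to 49.3%) and 69.6 ± 8.0% in APPPS1 microglia (SD, n = 9; range 56.8% to 80.9%). The share of App was 52.4 ± 1.9% and 29.6 ± 7.8%, while its level was 117.5 ± 10.7 CPM in amyloid-free and 123.4 ± 12.7 CPM in APPPS1 microglia. Aplp1 was about 1% of the family in microglia, at 1.13 ± 0.48% and 0.801 ± 0.539%. In astrocytes Aplp1 was the main family transcript in both conditions, at 60.97 ± 5.05% in amyloid-free and 57.2 ± 3.3% in APPPS1 mice. Aplp2 was 29.0 ± 3.5% and 31.0 ± 4.7% there, and App 10.1 ± 5.4% and 11.8 ± 2.8%. These shares restate the levels above and were not tested again.

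**Figure D4:**
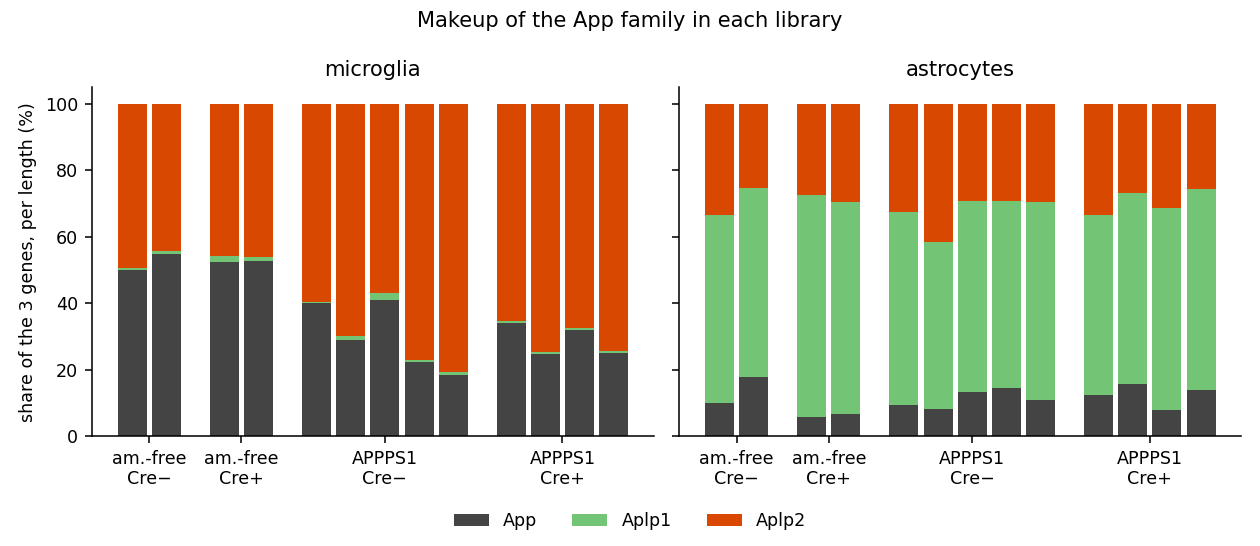
Share of App, Aplp1 and Aplp2 in their summed level per kb of principal transcript, in percent, in each library by genotype group. Each bar is 1 mouse. In microglia Aplp2 takes 44.4% to 49.3% in amyloid-free mice and 56.8% to 80.9% in APPPS1 mice, and in astrocytes Aplp1 is the largest part of each bar.

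The third question, named in the title of the series, was the effect of deleting astrocytic APOE4. No member passed in any of the 4 comparisons of Cre-positive with Cre-negative mice. In APPPS1 microglia 0 of 8 members were called, against 0.00568% of all genes, which is the zinc finger gene Zfp868, named after its value was seen. The log2 differences of the 8 genes ran from -0.50 ± 0.44 for Aplp1 to 0.21 ± 0.16 for Adam10. App was 97.2 to 129.3 CPM in Cre-negative and 118.8 to 142.1 CPM in Cre-positive mice, a difference of 0.15 ± 0.13. In APPPS1 astrocytes 0 of 9 were called, against 0.00997% of all genes (Zfp868 and Apoc1, named likewise). Ncstn was 104.3 to 119.7 CPM in Cre-negative and 78.3 to 104.1 CPM in Cre-positive APPPS1 astrocytes, a difference of -0.24 ± 0.11 that did not pass (adjusted p = 0.743). The other genes with at least 19.0 CPM ran from -0.16 for Ide to 0.25 for Psen2. By DESeq2 no member was called in these comparisons either.

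Mme was the gene whose astrocyte values differed most with Cre, at very low counts. It had 68, 0, 20, 6 and 35 counts in the 5 Cre-negative APPPS1 astrocyte libraries and 20 and 14 in the 2 amyloid-free Cre-negative ones. In the Cre-positive astrocyte libraries it had 0, 4, 0 and 2 counts with APPPS1 and 0 and 0 without. Of the 7 Cre-negative libraries 6 lay above all 6 Cre-positive ones, and mouse 447 was at 0. The log2 difference was -4.40 ± 1.49 in APPPS1 mice (unadjusted p = 0.0117 and adjusted p = 0.700 by edgeR) and did not pass. Its size is uncertain, because the Cre-positive libraries held 0 to 4 counts. In amyloid-free mice, where both Cre-positive libraries were at 0, the adjusted p was 0.281. Summed endothelial markers were 84.9 to 385 CPM in Cre-negative and 19.7 to 370 CPM in Cre-positive astrocytes. Summed pericyte and smooth muscle markers were 235.6 to 957 CPM and 126.9 to 606 CPM, and summed neuronal markers 47.9 to 117.2 CPM and 62.5 to 107.3 CPM. The part of these cells in the result was not tested.

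In amyloid-free mice there were only 2 mice per Cre state. In microglia 0 of 8 members were called, against 0.0114% of genes (Zfp868 and Cbr2, named likewise). Ncstn had 543 and 361 CPM in Cre-negative and 327 and 233.7 CPM in Cre-positive mice, a log2 difference of -0.62 ± 0.27 (unadjusted p = 0.0347, adjusted p = 0.309). Its lowest value is that of mouse 26, without which the difference was -0.44. In astrocytes 0 of 9 members were called, against 0.204% of genes. App had 113.9 and 309.4 CPM in Cre-negative and 70.7 and 94.4 CPM in Cre-positive mice, a log2 difference of -1.38 ± 0.53 (unadjusted p = 0.0220, adjusted p = 0.282). Without mouse 759, which has the 309.4 CPM, it was -0.44. By DESeq2 no member was called.

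App in astrocytes was highest in the libraries with most oligodendrocyte markers. The 5 astrocyte libraries with most App were those of mice 759, 458, 774, 475 and 469, at 309.4, 220.0, 194.9, 184.3 and 180.7 CPM. The same 5 libraries had the highest summed oligodendrocyte markers (Mog, Mag, Mobp, Cnp, Ermn, Mal and Cldn11), at 5581, 3301, 3307, 3128 and 3835 CPM. Within these 5 the order differed, and of the 3 libraries highest in either measure 2 were shared. The 8 other libraries had 70.7 to 168.9 CPM of App and 861 to 2313 CPM of these markers. Oligodendrocytes express App, and the part of these markers in the App level was not tested. None of the 7 markers was at 0 in any astrocyte library. By group, the marker sum was 2027 and 5581 CPM in the amyloid-free Cre-negative mice and 1109 and 1916 CPM in the Cre-positive mice, the comparison in which App differed by -1.38. The library of mouse 759 was also the highest of the 13 in summed neuronal markers (117.2 CPM), oligodendrocyte precursor markers (53.6 CPM) and pericyte and smooth muscle markers (957 CPM), and their part was not tested.

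**Figure D5:**
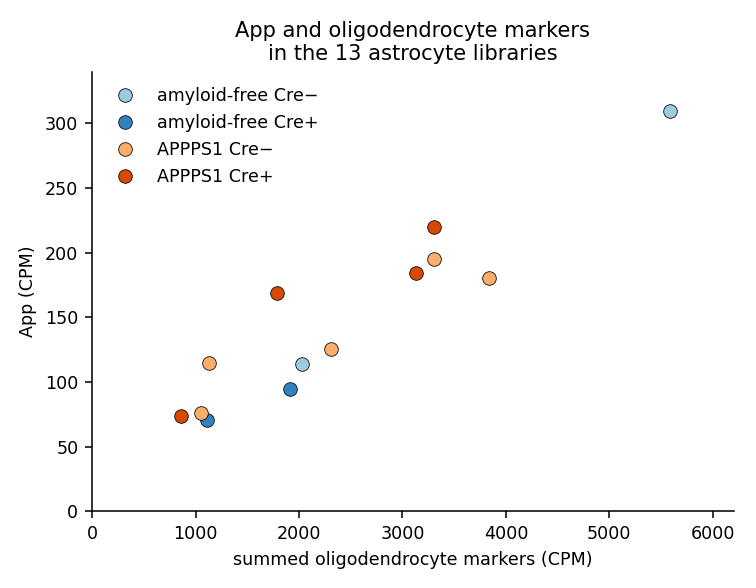
App level against the summed level of 7 oligodendrocyte markers in the 13 astrocyte libraries, both in CPM on linear axes from 0, coloured by genotype group. The library of mouse 759 lies at the top right with 309.4 CPM of App and 5581 CPM of markers. The 5 libraries highest in one measure are the 5 highest in the other, though not in the same order.

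Human APP, the transgene, was counted on its own rows and bears on how mouse App is read. In APPPS1 microglia it had 36 to 342 counts (median 109), or 0.806 to 8.63 CPM with a median of 2.26 CPM. In APPPS1 astrocytes it had 2 to 117 counts (median 17), with a median of 0.372 CPM. Amyloid-free libraries had 0 to 2 counts in either sort. Human APP was thus above every amyloid-free library of the same sort in all 9 APPPS1 microglia libraries, while in astrocytes the lowest APPPS1 library, with 2 counts, equalled the highest amyloid-free ones. It made up 0.818% to 7.72% of the summed human and mouse counts in APPPS1 microglia and 0.0334% to 1.22% in APPPS1 astrocytes. The sources used here do not say how reads that fit both copies were assigned, so the mouse App counts of APPPS1 mice are uncertain by an amount that cannot be read from these rows.

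Other genes of the pathway were taken from a list of 34, grouped by role. Between the sorts, 18 were higher and 12 lower in microglia, against 35.4% and 41.1% of all genes, with a median log2 difference of 0.27 against -0.18 over all genes. Both relatives of Adam10 in the list, Adam9 and Adam17, were higher in microglia, and Bace2, the homologue of Bace1, was lower. Of the 4 other gamma-secretase subunit genes, 1 was higher and 1 lower. The latter is Aph1b, whose reads can be split with its near-identical paralogue Aph1c and whose value is uncertain. Of the 8 list genes with the lowest p, the higher ones were, lowest p first, Adam17 at 2.59 ± 0.08 on the log2 scale, then Ctsd and Ctsb, which encode the lysosomal proteases cathepsin D and cathepsin B, at 4.68 ± 0.19 and 3.31 ± 0.15. Picalm, an endocytic adaptor gene, followed at 2.78 ± 0.13 and Itm2b, an inhibitor of precursor cleavage, at 1.76 ± 0.09. The lower ones were, in the same order, Ece1, an endothelin-converting peptidase gene, at -2.75 ± 0.10, and Apba2 and Apbb1, which encode adaptors that bind the tail of the precursor, at -8.94 ± 0.41 and -3.18 ± 0.15. All 8 had an edgeR adjusted p of at most 1.9e-14.

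In amyloid microglia, 7 of the 32 list genes tested rose and 1 fell, against 6.06% and 3.52% of all genes, and the median log2 change was 0.18 against -0.05 over all genes. Apbb2, an adaptor of the Fe65 family, rose by 1.43 ± 0.20 (edgeR adjusted p = 0.0016). The cathepsin genes Ctsb and Ctsd rose by 1.43 ± 0.23 and 1.69 ± 0.28 (adjusted p = 0.0035 each) and Itm2b by 0.67 ± 0.13 (adjusted p = 0.0097). Of the rest, Ece2, Tmed10 and Itm2c rose by 0.51, 0.40 and 0.63, and Aph1b fell by 1.03, with adjusted p of 0.0355 to 0.0472. Each of these last 4 lost its call in 9 or 10 of the 13 fits that left out 1 mouse. Among those that rose, degrading enzymes gave 3, modulators of cleavage 3 and adaptors 1, and the alpha-secretase relatives gave 0 of 2. The list was chosen with results of these data known, so these counts are descriptions. In astrocytes none of 33 passed, and none passed in the 4 Cre comparisons (edgeR; unadjusted p under 0.05 for 2 genes with amyloid in astrocytes and for 0, 3, 8 and 6 with Cre in APPPS1 microglia, APPPS1 astrocytes, amyloid-free microglia and amyloid-free astrocytes).

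The amyloid change was larger in microglia than in astrocytes for 4 of the 34, against 0.773% of all genes. These were Ctsb at 1.403 ± 0.27 (edgeR adjusted p = 0.0096), Ctsd at 1.61 ± 0.31 (adjusted p = 0.0098), Apbb2 at 1.13 ± 0.26 (adjusted p = 0.026) and Itm2b at 0.66 ± 0.17 (adjusted p = 0.043). With the mouse as a block the adjusted p was 0.0570, 0.0537, 0.0581 and 0.150, respectively, so none of the 4 passed. Without mouse 26 it was 0.0950, 0.105, 0.212 and 0.265, and without mouse 759 it was 0.0866, 0.0742, 0.190 and 0.190. Over the 13 fits that left out 1 mouse, Ctsb and Ctsd lost their call in these 2, Apbb2 in 3 and Itm2b in 10. Itm2b also lost it without the filter on low counts (adjusted p = 0.0818), and all 4 lost it with mouse 459 kept.

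For each gene the protein-coding genes with the most similar pattern were found among 8459 whose log2 CPM averaged 3 or more, as the smallest root mean square difference of log2 CPM, centred over the 26 libraries. The nearest to Aplp2 were Ephx1 at 0.29 and Pebp1 at 0.30, against an RMS of 0.73 for Aplp2 itself. The nearest to Ncstn were Stard3 and Mfsd1, at 0.20 each, and to Adam10 Vps4b at 0.19 and Washc4 at 0.20, against 1.10 and 1.02 for the genes themselves. Bace1 was nearest to Dock1 (0.17) and Snapc3 (0.19), against 0.73 for itself. Ide was nearest to Itfg1 (0.17) and Cdc16 (0.18), against 0.49, and Psen2 to Nat10 (0.22) and Retreg2 (0.23), against 0.27. Aplp1 was nearest to Acsl3 (0.54) and Grm3 (0.55), against 4.05 for itself. App was nearest to Plcl1 and Pacs2, at 0.34 each against 0.47 for itself. The nearest to Mme were Serinc5 at 1.07 and Tpm1 at 1.12, against 1.499 for Mme itself. Relative to the RMS of the gene itself, the neighbours of App, Psen2 and Mme were less close than those of the other genes. All 26 libraries enter, so a difference between the sorts that 2 genes share counts toward their likeness.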

How the data were processed

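RNA from the sorted cells was made into SMARTer libraries, per the labels' protocols. The authors deposited raw counts per gene, made with bcl2fastq, STAR and featureCounts of Subread on the builds GRCm38 and GRCh38, per the submitters' processing notes. Settings, strand, annotation release and the treatment of reads that fit several genes are not given in the sources used here. The table held 95966 rows, in which 258 gene IDs were repeated with the same counts, and repeats were dropped, leaving 40481 mouse and 55093 human genes. Library totals and tests used mouse genes. CPM of human genes is relative to the summed mouse gene counts without TMM scaling. The TMM factors ran from 0.718 to 1.294, so CPM of human and of mouse genes are not in quite the same unit. Positions and lengths came from GENCODE M21, which matched 40254 mouse genes, and promoter sequences from RefSeq.

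Counts went into edgeR 4.0.16 under R 4.3.3 (filterByExpr by group, TMM, quasi-likelihood F tests, 1 term per genotype group), in 1 fit per sort and 1 fit of all 26 libraries for comparisons between the sorts. A gene was called at a Benjamini-Hochberg adjusted p under 0.05 over all genes tested. SE is the absolute log2 change over the square root of F. The test script was tested on simulated data. Alternatives were mouse 459 kept as labelled, no filter, DESeq2-type size factors, DESeq2 1.42.0, each mouse left out, 1 Cre state alone, and the mouse as a block. The mouse number pairs the samples because both libraries of a number came from the same animal. The correlation of their deviations from the group means ran from -0.05 to 0.26.

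Over 44 pairs of libraries of 1 group, those with mouse 459 included, chi-square divided by its degrees of freedom was never under 39.5. For genes with many counts the spread between mice, and not depth, thus set the precision. The value is a sum over genes and does not show this for genes with few counts, such as Mme. The text describes all 9 genes, names the 8 genes of lowest p, or fewer, that passed per comparison from a list of 34, and gives the 2 nearest patterns per gene. The genes and lists were chosen with earlier results of these data known. Some genes are not reported here, and marker sums leave them out.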

Additional observations from a re-analysis of the deposited data

Results flagged for a closer look

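Of 34 groups of 4 or 5 libraries screened for a library far from the others, 2 had one, where chance gives about 5%. In APPPS1 Cre-negative astrocytes, Aplp2 was 390.0 CPM in mouse 779, below the next library at 448.6 CPM, with the other 4 between 448.6 and 456.7 CPM. In the same group Ncstn was 119.7 CPM in mouse 469, above the next library at 108.5 CPM. The amyloid change of Aplp2 differed between the sorts, by 1.68 on the log2 scale (edgeR adjusted p = 0.0101), a call that the mouse block and the loss of mouse 26 or 759 each ended. Human APP, which no comparison used, had a median of 2.26 CPM in APPPS1 microglia and 0.372 CPM in APPPS1 astrocytes, against 0 to 2 counts in amyloid-free libraries.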

How the results depend on the processing

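No member changed its call between the sorts under any alternative apart from Mme. In the main fit 6 of 9 were called, against 76.5% of all genes. With DESeq2 and with the mouse as a replicate block Mme was called as well. The block left the Aplp2 difference in amyloid response at 1.59 (adjusted p = 0.0686) and took the count from 325 to 80 genes and the members called to 0; it ended no other member's call, and among the list genes those of Ctsd, Ctsb, Apbb2 and Itm2b. For amyloid in microglia, the count of 1685 genes was 19 with mouse 459 kept, 2746 with DESeq2 and 55 in Cre-negative mice alone, and the members called were 0 with mouse 459 kept and in Cre-negative mice alone. Aplp2 was then 1.64 (adjusted p = 0.0838) and 1.57 (adjusted p = 0.133). For amyloid in astrocytes, 1 gene was called without the filter, 293 with DESeq2 and 133 in Cre-positive mice alone. For Cre, DESeq2 called 6, 55, 337 and 972 genes in APPPS1 microglia, APPPS1 astrocytes, amyloid-free microglia and amyloid-free astrocytes. With mouse 459 kept, 1 gene was called in APPPS1 astrocytes and 0 in amyloid-free microglia and amyloid-free astrocytes, and without the filter 146 and 140 in the last pair. For the difference in amyloid response, 30 genes were called with mouse 459 kept and 1212 with DESeq2. The cause was not tested.

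Leaving out 1 mouse at a time gave 15554 to 16462 genes between the sorts, 392 (without mouse 759) to 2441 (without mouse 469) for amyloid in microglia, 0 to 2 in astrocytes, and 52 (without mouse 26) to 577 (without mouse 469) for the difference in response, with 0 to 1 members called. Without mouse 26 the count for amyloid in microglia was 432 and without mouse 465 it was 650, and without mouse 759 the count for the difference was 87. For Cre it gave 1 to 2 genes in APPPS1 microglia, 2 to 4 in APPPS1 astrocytes, 0 to 849 (without mouse 22) in amyloid-free microglia and 0 to 155 (without mouse 439) in amyloid-free astrocytes. Aplp2 ran from 1.43 to 1.69 for amyloid in microglia and from 1.496 to 1.79 for the difference.

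Directions turned only among values that had not passed, apart from Ctsd, whose difference in response was -0.20 with mouse 459 kept. With mouse 459 kept the others were Bace1 for amyloid in microglia (0.0766) and for the difference (0.20), Adam10 for amyloid in astrocytes (0.21), Ncstn for Cre in APPPS1 astrocytes (0.46) and Ncstn for the difference (-0.0138). Ncstn for Cre in APPPS1 microglia turned without the filter (0.0082) and with DESeq2 (4.4e-05), and Ncstn for amyloid in astrocytes with DESeq2-type size factors (-0.0023) and with DESeq2 (-0.0025). In Cre-positive mice alone the turned values were Aplp1 in microglia (-0.26) and Ncstn (-0.16) and Adam10 (0.0235) in astrocytes, and in Cre-negative mice alone App (-0.62), Bace1 (0.0636) and Ide (0.0352) in astrocytes. Leaving out 1 mouse turned Ncstn (-0.0867 to 0.13) for Cre in APPPS1 microglia, App (-0.13 to 0.14) for Cre in amyloid-free microglia and Ncstn (-0.0445 to 0.28) for Cre in amyloid-free astrocytes. It also turned Psen2 (-0.21 to 0.0805) for amyloid in microglia, Aplp2 (-0.14 to 0.0144), App (-0.12 to 0.63), Bace1 (-0.13 to 0.0155) and Ncstn (-0.0773 to 0.0838) for amyloid in astrocytes, and App (-0.50 to 0.13) and Bace1 (-0.24 to 0.0505) for the difference.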
